A study of Mus musculus with 24 samples.

Results

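The genes that carry glucose into the heart muscle cell and break it down to lactate were followed as a named list of 10: the glucose transporters *Slc2a1* and *Slc2a4*, the hexokinases *Hk1* and *Hk2*, and the enzymes *Pfkm*, *Aldoa*, *Pgk1*, *Pkm*, *Ldha* and *Ldhb*. They form a list of names with no threshold on a measured value, drawn up with earlier results of these data known, and are 10 of the 16978 genes listed in either expression table. All 10 were listed in both tables and passed the minimum of more than 1 CPM (reads scaled to the size of the library) in at least 4 of 8 uninjected and 8 of 16 injected libraries. The groups compared were mouse hearts with and without *Xinβ* (*Xirp2*), an actin-binding gene of the intercalated disc, and with or without a vector that supplies an active form of the transcriptional co-activator YAP.

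Glucose enters cardiomyocytes through GLUT1 (*Slc2a1*), which serves basal uptake and prevails in the fetal heart, and through GLUT4 (*Slc2a4*), which moves to the membrane in response to insulin and contraction. Hexokinase traps glucose as glucose 6-phosphate, phosphofructokinase commits it to glycolysis, aldolase splits the sugar, and phosphoglycerate kinase and pyruvate kinase return ATP. Lactate dehydrogenase, assembled from A and B subunits, interconverts pyruvate and lactate. In the weeks around birth the rodent heart turns from glycolysis towards fatty acid oxidation, while hypoxia-inducible factors, MYC and insulin signalling are known to raise parts of the glycolytic programme.

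RNA was sequenced from 24 hearts at postnatal day 7.5, in 6 groups of 4. One table held wild-type (WT) and *Xinβ* knockout (KO) hearts without injection, sequenced as single-end reads of 50 bp. The other held littermates of both genotypes injected under the skin on postnatal day 1 with AAV9, a heart-homing adeno-associated virus, which carried either GFP or human YAP with the S127A change, and was sequenced as paired-end reads of 150 bp. These 4 groups are called WT+GFP, WT+YAP, KO+GFP and KO+YAP. Both vectors were driven by the chicken cardiac troponin T promoter and so act mainly in cardiomyocytes. The deletion is a germline one, carried by every cell, in which part of the gene was replaced by a cassette. The mice were on a C57BL6 background. The labels name the tissue as the apex of the heart, whereas the study describes ventricles. The 2 tables were sequenced and normalised apart, so every test was made within a table.

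The libraries held 20490875 to 31154155 reads in the uninjected table and 15015038 to 19444404 in the injected one, and the lowest value of any of the 10 genes rested on 158 reads. *Xirp2* stood between 0 and 0.972 CPM in all KO libraries and between 56.0 and 168 CPM in all WT libraries, so the labels and the deleted gene went together. The Y-linked *Ddx3y* ranged from 0.588 to 68.1 CPM within KO+GFP and from 0.110 to 56.7 CPM within WT+GFP, so sexes were mixed within groups, while it was 3.68 to 56.2 CPM in the KO and 39.5 to 49.6 CPM in the WT uninjected libraries. All 8 cardiomyocyte markers were present, with a summed level of 50900 to 84601 CPM over all libraries. In uninjected hearts this sum was 64241.5 to 84601 CPM in KO (median 71537) and 58096 to 65140 CPM in WT (median 62380), which overlapped. No skeletal muscle marker of 6 was listed, and 1 adipocyte marker of 6 was. Markers of other cells moved with genotype and vector. In uninjected hearts the 6 fibroblast markers summed to 1142 to 1567 CPM in KO against 2132 to 2273 CPM in WT, the 6 endothelial markers to 1046 to 1347 against 1461 to 1604 CPM, and the 6 macrophage markers to 26.4 to 45.3 against 68.3 to 85.4 CPM. The 4 neutrophil markers listed summed to 46.7 to 104 CPM in KO against 3.73 to 9.82 CPM in WT. The KO+GFP libraries stood apart from the other 3 injected groups in the same way, with fibroblast markers at 1169 to 1664 CPM against at least 1993 CPM and neutrophil markers at 29.4 to 48.5 CPM against at most 12.6 CPM. In whole tissue such as this, fewer cells of a type and less RNA per cell cannot be told apart.

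Per kilobase of exon, the 10 genes spanned a wide range and kept a similar order in every group. In WT uninjected hearts *Ldhb* was highest at 497 ± 26.0 CPM per kb (mean ± SD, n = 4), followed by *Aldoa* at 396 ± 26.8 CPM per kb. *Pkm*, *Pfkm* and *Ldha* formed a middle tier at 226 ± 14.4, 213.5 ± 6.51 and 201 ± 11.8 CPM per kb, in which each neighbour overlapped the next. *Pgk1* stood lower at 125 ± 8.33 CPM per kb. The entry genes were far lower: *Slc2a4* reached 37.3 ± 3.30 and *Hk2* 36.7 ± 2.74 CPM per kb, which overlapped each other, *Hk1* reached 24.6 ± 2.21, and *Slc2a1* was last at 2.81 ± 0.287 CPM per kb. *Slc2a1* was the lowest of the 10 in all 6 groups, from 2.81 CPM per kb in WT uninjected hearts to 5.58 CPM per kb in KO+GFP hearts. Together the 10 genes took 0.515% to 0.689% of the reads of a library.

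**Figure D1:**
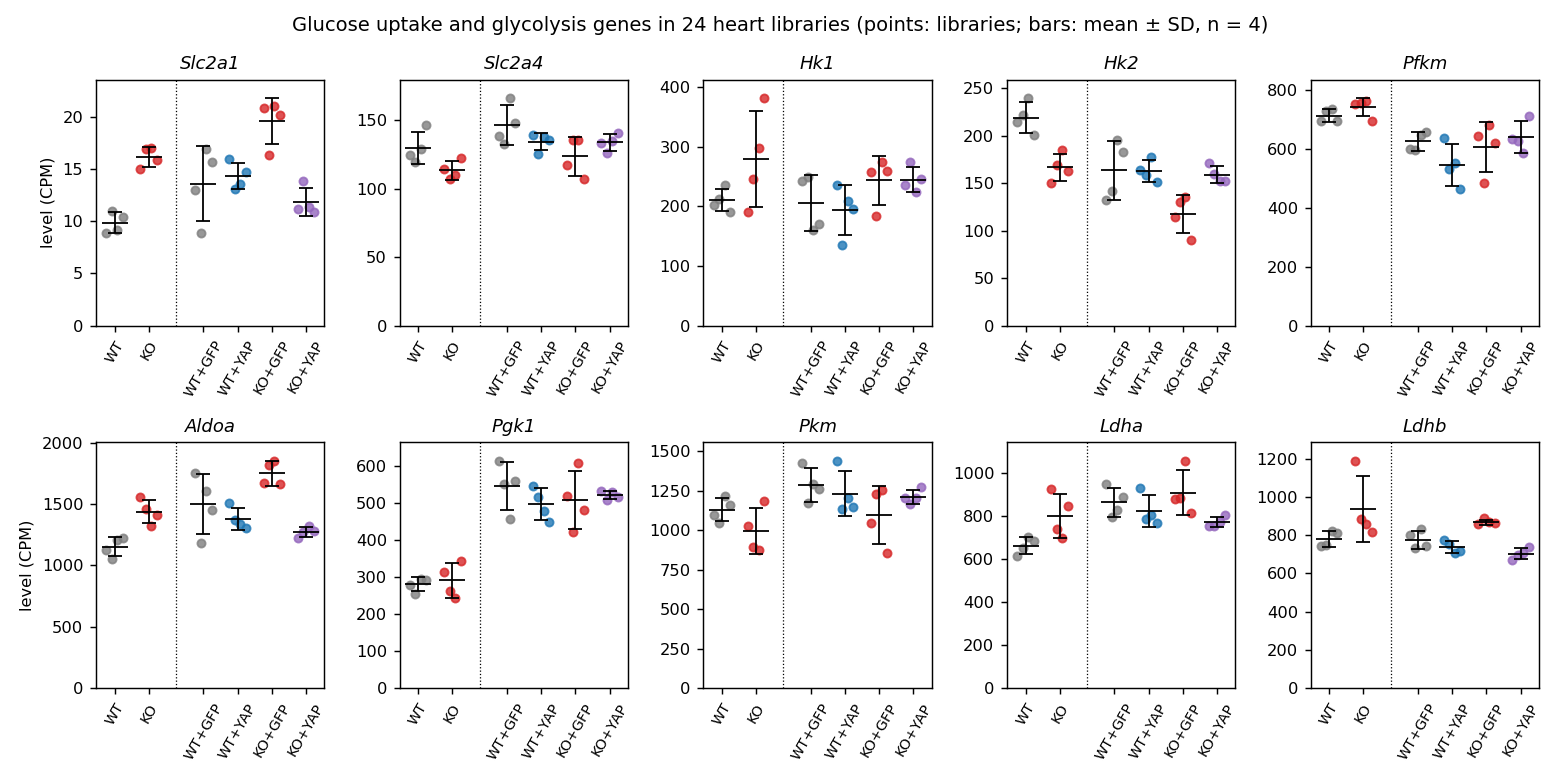
Level of each of the 10 genes in CPM (vertical axis, from 0) in every library of the 6 groups; points are libraries, black bars the mean ± SD of 4, and the dotted line parts the uninjected from the injected table, which were normalised apart. *Slc2a1* was high and *Hk2* low in the KO and KO+GFP groups, *Aldoa* and *Ldhb* were highest in KO+GFP and lowest in KO+YAP among injected groups, and *Pfkm* and *Pgk1* overlapped between the groups of each table.

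Promoters of the 4 genes that changed between the injected KO groups are shown here because the deposited tables give no binding data and only the sequence can be set beside the expression. They are RefSeq promoters of build GRCm38.p6, read 5′ to 3′ on the strand of the gene and printed up to the base before the start site. Of the 10 genes, 9 had a promoter in the table used, with 17 promoters in all, and *Slc2a4* had none. Capitals mark the letters ACGTG on either strand (CACGT on the other), the core of the element bound by hypoxia-inducible factors, which also lies inside the E-box CACGTG bound by MYC and related factors.
*Slc2a1*, chr4:119108495-119108744, plus strand: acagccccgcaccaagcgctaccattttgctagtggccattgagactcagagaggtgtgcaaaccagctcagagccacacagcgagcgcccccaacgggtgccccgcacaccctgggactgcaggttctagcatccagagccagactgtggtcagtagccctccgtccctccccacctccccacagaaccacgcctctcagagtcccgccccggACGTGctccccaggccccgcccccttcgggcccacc
*Hk2*, chr6:82774455-82774704, minus strand: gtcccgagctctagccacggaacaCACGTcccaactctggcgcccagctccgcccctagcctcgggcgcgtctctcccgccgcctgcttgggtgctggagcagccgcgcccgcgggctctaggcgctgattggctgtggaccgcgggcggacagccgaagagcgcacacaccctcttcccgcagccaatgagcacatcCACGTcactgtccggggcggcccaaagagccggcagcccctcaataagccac
*Aldoa*, chr7:126799255-126799504, minus strand: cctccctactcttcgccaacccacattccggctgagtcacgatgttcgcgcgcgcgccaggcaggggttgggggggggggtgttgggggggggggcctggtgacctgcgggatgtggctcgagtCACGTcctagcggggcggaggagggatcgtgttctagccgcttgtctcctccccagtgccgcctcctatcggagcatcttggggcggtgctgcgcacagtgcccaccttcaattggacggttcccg
*Ldhb*, chr6:142507958-142508207, minus strand: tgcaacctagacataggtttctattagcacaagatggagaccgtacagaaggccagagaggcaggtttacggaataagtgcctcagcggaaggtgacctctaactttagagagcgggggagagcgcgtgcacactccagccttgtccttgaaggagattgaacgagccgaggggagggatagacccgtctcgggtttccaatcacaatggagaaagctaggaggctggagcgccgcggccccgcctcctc
In windows from 250 bases before to 50 after the start, ACGTG was found in 10 of the 17 promoters, against 19.6% of the 32851 promoters in the reference. Promoters of one gene can overlap, and 2 of *Aldoa* share the same match, so the 17 are not separate sequences. The *Slc2a1* promoter held 1 match, 36 bases before the start, the *Hk2* promoter 2, at 226 and 52 bases before it, and the *Aldoa* promoter shown 1, at 126 bases before it. The *Ldhb* promoter held none. GGAATG, the core letters of the site bound by TEAD proteins, the DNA-binding partners of YAP, was found on either strand in 1 of the 17, a promoter of *Aldoa*, against 14.7% of all promoters. A match is a run of letters and no evidence of binding, and the 4 genes with promoters printed did not share a direction.

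Of the 10 genes, between 0 and 4 passed the test in each comparison. The test was limma on log2(CPM + 1), with p-values adjusted by the Benjamini-Hochberg method over all genes of the table, and a gene counted as changed at an adjusted p under 0.05. In uninjected hearts, KO against WT, *Slc2a1* rose and *Hk2* fell, so 2 of 10 passed against 6.69% of the 15598 genes tested, with 3.23% higher and 3.46% lower. For 3 of the 10 all libraries of one genotype lay above those of the other, which held for 16.4% of all genes. In KO+GFP against WT+GFP the same 2 genes passed in the same directions, against 13.7% of the 14597 genes tested, with 6.43% higher and 7.22% lower. All libraries of one group lay above the other for 1 of the 10, against 15.3% of all genes. In KO+YAP against KO+GFP 4 of 10 passed, with *Slc2a1*, *Aldoa* and *Ldhb* lower and *Hk2* higher, against 14.8% of all genes, 7.85% higher and 6.92% lower. Libraries of the 2 groups lay fully apart for 5 of the 10, against 17.5% of all genes. The last 2 comparisons share the KO+GFP libraries, so a change in one and its opposite in the other are not separate observations. The median difference over the 10 genes was 0.15, 0.01 and 0.04 on the log2 scale in these 3 comparisons, beside 0.00, -0.01 and 0.01 over all genes tested.

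**Figure D2:**
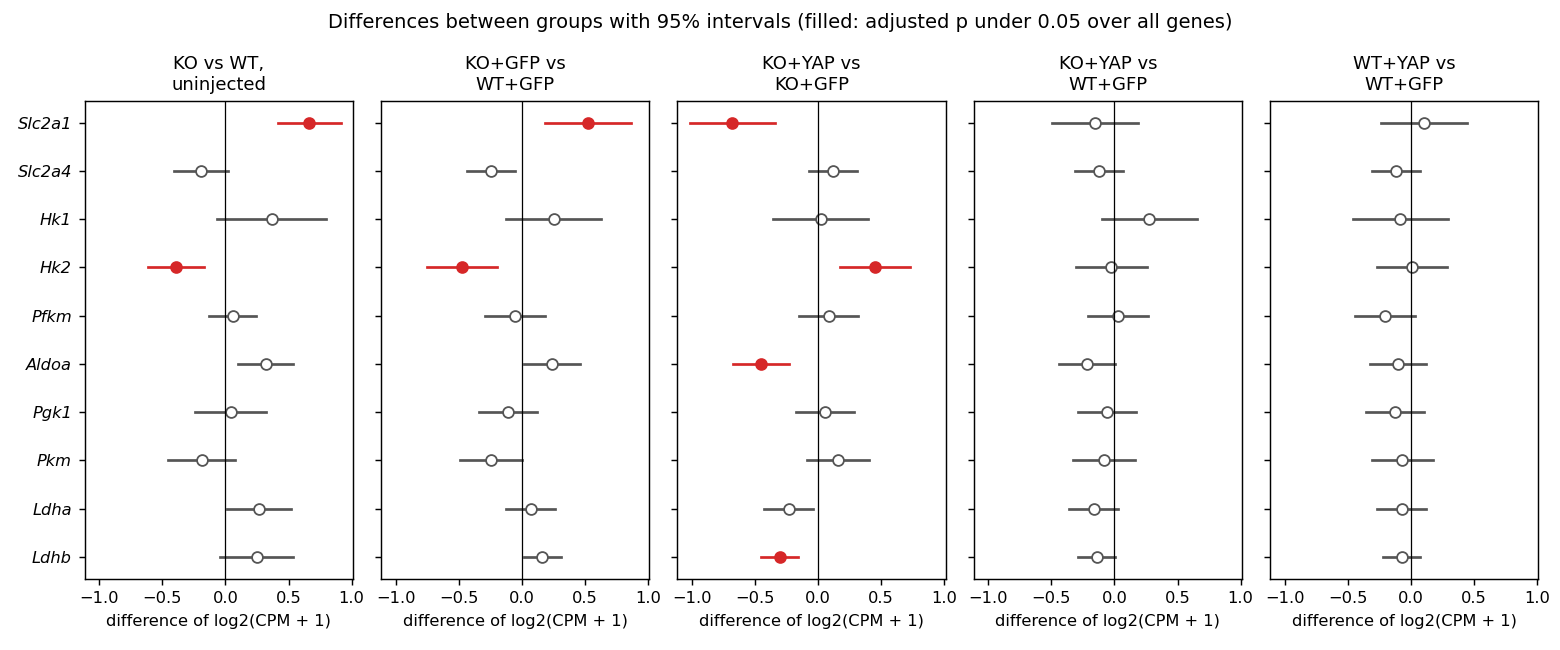
Difference of log2(CPM + 1) between groups (horizontal axis) for each gene (rows) in 5 comparisons, with 95% intervals from limma; filled red points passed an adjusted p under 0.05 over all genes. *Slc2a1* and *Hk2* passed in the first 3 panels, *Aldoa* and *Ldhb* in the third, and no gene in the last 2.

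*Slc2a1* (ENSMUSG00000028645, chr4:119108711-119137983, plus strand, GRCm38) encodes GLUT1. The 4 WT uninjected libraries held 8.87, 11.0, 9.15 and 10.4 CPM and the 4 KO libraries 15.0, 16.9, 17.0 and 15.8 CPM. Every KO library lay above every WT library, and the mean was 64.0% higher. The difference was 0.66 on the log2 scale (SE 0.11), with an adjusted p of 0.0105 in limma. It passed without each of the 8 libraries in turn, with differences of 0.62 to 0.71 and adjusted p-values of 0.00729 to 0.0469.

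After injection of GFP the *Slc2a1* level was 13.0, 8.81, 16.9 and 15.7 CPM in WT and 20.8, 16.3, 21.0 and 20.2 CPM in KO hearts. Here the groups overlapped by 1 library on each side, since KO+GFP replicate 2 lay below WT+GFP replicate 3. The difference was 0.53 (SE 0.16, adjusted p in limma 0.0381). The call was lost without KO+GFP replicate 1, 3 or 4 or WT+GFP replicate 1 or 2, with adjusted p-values from 0.0749 to 0.115, and without WT+GFP replicate 2, the lowest library, the difference was 0.35. With only the compared groups fitted the adjusted p was 0.133. The 4 KO+YAP libraries held 11.2, 13.8, 11.4 and 10.9 CPM, all below all 4 KO+GFP libraries, and the mean fell by 39.6% from KO+GFP to KO+YAP. This difference was -0.68 (SE 0.16, adjusted p 0.00924) and passed without each of the 16 libraries in turn. WT+YAP hearts held 15.9, 13.1, 13.6 and 14.7 CPM, within the range of WT+GFP. The change with YAP differed between genotypes: the interaction was -0.79 (SE 0.23, adjusted p 0.0451), where 7.56% of all genes passed. It was the 1 interaction of the 10 genes that passed, and it missed the threshold with *Ddx3y* as a covariate (adjusted p 0.0620) and when any 1 of 12 libraries was left out, with adjusted p-values of 0.0628 to 0.0838. Those libraries were KO+GFP replicates 1, 3 and 4, KO+YAP replicates 1, 3 and 4, WT+GFP replicates 1 and 2 and all 4 of WT+YAP.

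*Slc2a4* (ENSMUSG00000018566, chr11:69942539-69948188, minus strand) encodes the insulin-responsive GLUT4 and did not pass in any comparison. It ranged from 107 to 123 CPM in KO and from 119.6 to 146 CPM in WT uninjected hearts, and from 107 to 136 CPM in KO+GFP and 132 to 166 CPM in WT+GFP. The ranges overlapped in both pairs. The KO difference was -0.19 (adjusted p 0.283) without injection and -0.24 (adjusted p 0.0868) with GFP. With GFP it passed in 1 of 16 fits with a library left out, namely without KO+GFP replicate 2 (adjusted p 0.0398). In the 16 fits the adjusted p reached 0.257, and it passed in 0 of 8 other settings. The 4 WT+YAP and 4 KO+YAP libraries held 125 to 140.4 CPM, within the range of the GFP groups.

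The transporters were also set against each other within a library. The ratio of *Slc2a4* to *Slc2a1*, each per kilobase, was 6.41 to 7.80 in KO and 11.0 to 14.2 in WT uninjected hearts. Among injected hearts it was 5.35 to 8.36 in KO+GFP, 9.16 to 13.0 in KO+YAP, 9.53 to 15.1 in WT+GFP and 8.81 to 10.2 in WT+YAP. KO+GFP lay below all libraries of the other 3 injected groups, while KO+YAP overlapped both WT groups. These ratios are given as a description, without a test, since each combines levels already compared.

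**Figure D3:**
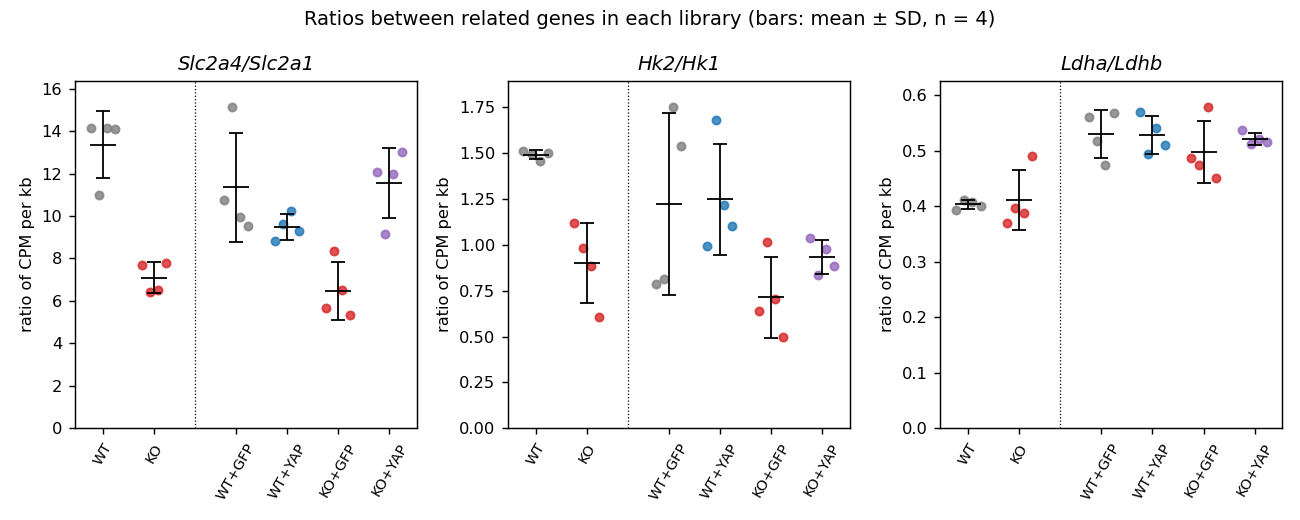
Ratio of CPM per kb (vertical axes, from 0) for *Slc2a4* over *Slc2a1*, *Hk2* over *Hk1* and *Ldha* over *Ldhb* in each library of the 6 groups; points are libraries, bars the mean ± SD of 4, and the dotted line parts the 2 tables. The first ratio was 5.35 to 8.36 in KO+GFP against at least 8.81 in the other injected groups, and the third overlapped between genotypes in both tables.

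*Hk2* (ENSMUSG00000000628, chr6:82725025-82774454, minus strand) encodes hexokinase 2, the form of adult, insulin-responsive muscle. It held 213.99, 222, 239.8 and 201 CPM in WT and 149.9, 169.6, 185 and 162 CPM in KO uninjected hearts. All KO libraries lay below all WT libraries, and the mean fell by 23.9%. The difference was -0.39 (SE 0.10, adjusted p in limma 0.0473), close to the threshold. The call held without KO replicate 1 and was lost without any other 1 of the 8 libraries, with adjusted p-values of 0.0537 to 0.144 and differences of -0.44 to -0.35, and in edgeR on the recovered reads the adjusted p was 0.0540, while DESeq2 on the same reads passed it (adjusted p 0.00385). With *Ddx3y* as a covariate, which was high in all WT and varied among KO libraries, the difference was -0.35 and the adjusted p 0.0767.

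In WT+GFP hearts *Hk2* held 133, 142, 195.98 and 183 CPM, and in KO+GFP hearts 115, 129.8, 135 and 89.9 CPM. KO+GFP replicate 3 lay above WT+GFP replicate 1, so the groups overlapped there. The difference was -0.47 (SE 0.13, adjusted p 0.0250), and the call was lost without KO+GFP replicate 1 or 4 or WT+GFP replicate 3 or 4 (adjusted p 0.0622 to 0.0875) and with only the 2 groups fitted (adjusted p 0.115). In KO+YAP hearts the level was 171, 159.6, 153 and 152 CPM, above every KO+GFP library. The mean was 35.4% higher than in KO+GFP, a difference of 0.45 (SE 0.13, adjusted p 0.0312). This call was lost without KO+GFP replicate 1 or 4 or KO+YAP replicate 1, 2 or 3 (adjusted p 0.0513 to 0.0948), and with only the 2 groups fitted (adjusted p 0.0564). WT+YAP held 163, 158, 178 and 151 CPM, inside the range of WT+GFP, and the interaction was 0.44 (SE 0.19, adjusted p 0.162) and did not pass.

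*Hk1* (ENSMUSG00000037012, chr10:62268855-62379908, minus strand), is the widely expressed hexokinase. It ranged from 191 to 382 CPM in KO uninjected hearts, with a coefficient of variation of 29.0%, and from 191 to 235.4 CPM in WT. The difference of 0.37 (SE 0.19) had an adjusted p of 0.308, and it ranged from 0.20 without KO replicate 4 to 0.53 without KO replicate 1. The other comparisons did not pass either. The ratio of *Hk2* to *Hk1* per kilobase was 1.46 to 1.51 in WT uninjected hearts and 0.609 to 1.12 in KO, without overlap. Among injected hearts it overlapped between KO+GFP, at 0.497 to 1.01, and WT+GFP, at 0.785 to 1.75.

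*Pfkm* (ENSMUSG00000033065, chr15:98092589-98132451, plus strand) encodes the muscle form of phosphofructokinase and gave the smallest spread of the list in uninjected hearts. It held 693 to 735 CPM in WT and 695 to 762 CPM in KO, a difference of 0.06 with a 95% interval of -0.13 to 0.24. In injected hearts it ranged from 462 to 713 CPM, with all 4 groups overlapping, and it did not pass in any comparison.

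*Aldoa* (ENSMUSG00000030695, chr7:126795234-126800751, minus strand), the muscle aldolase, held 1129, 1053, 1204 and 1225 CPM in WT and 1554, 1462, 1323 and 1414 CPM in KO uninjected hearts. The groups did not overlap, yet the difference of 0.32 (SE 0.10) missed the threshold in limma with an adjusted p of 0.0830. Of 7 other settings DESeq2 on the recovered reads was the 1 that passed it, with an adjusted p of 0.00952. It passed in 0 of 8 limma fits with a library left out, with adjusted p-values of 0.0520 to 0.243. In WT+GFP hearts the level was 1752, 1181, 1603 and 1450.5 CPM, and in KO+GFP hearts 1668, 1816, 1853 and 1659.8 CPM, which overlapped (difference 0.24, adjusted p 0.149, and 0.13 without WT+GFP replicate 2, the lowest library). In KO+YAP hearts it was 1223, 1271, 1324 and 1283 CPM. All 4 lay below all 4 KO+GFP libraries, and the mean fell by 27.1%, a difference of -0.45 (SE 0.10, adjusted p 0.00819). It passed without each of the 16 libraries in turn, with differences of -0.48 to -0.43. WT+YAP held 1507, 1373, 1337 and 1306 CPM, which overlapped both WT+GFP and KO+YAP, and the interaction of -0.35 (SE 0.15) did not pass (adjusted p 0.160).

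*Pgk1* (ENSMUSG00000062070, chrX:106187100-106203699, plus strand), phosphoglycerate kinase, and *Pkm* (ENSMUSG00000032294, chr9:59656368-59679375, plus strand), pyruvate kinase of muscle, did not pass in any comparison. *Pgk1* held 243 to 345 CPM in KO and 255 to 297 CPM in WT uninjected hearts, and its difference of 0.04 had a 95% interval of -0.24 to 0.33. *Pkm* held 875 to 1185 CPM in KO and 1047 to 1213 CPM in WT, a difference of -0.19 with an interval of -0.46 to 0.08. With GFP the *Pkm* difference was -0.24 (adjusted p 0.185), and -0.13 without KO+GFP replicate 4. *Pkm* gives rise to an M1 and an M2 product by exclusive splicing, which gene-level values do not separate, and it shares 767 exonic bases on the same strand with the annotated gene *Gm49759*.

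*Ldha* (ENSMUSG00000063229, chr7:46841475-46855627, plus strand) encodes the A subunit of lactate dehydrogenase, which prevails in glycolytic tissue. It held 616 to 705 CPM in WT and 699 to 926 CPM in KO uninjected hearts (difference 0.27, adjusted p 0.194), with KO replicate 3 inside the WT range. It held 818 to 1059.9 CPM in KO+GFP and 755 to 805 CPM in KO+YAP. These groups did not overlap, but the difference of -0.23 (SE 0.09) did not pass (adjusted p 0.102).

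*Ldhb* (ENSMUSG00000030246, chr6:142490249-142507957, minus strand) encodes the B subunit, typical of oxidative heart muscle. In uninjected hearts it held 742, 749, 820.2 and 812 CPM in WT and 1189.7, 885, 857 and 818 CPM in KO. KO replicate 4 lay inside the WT range, and the difference of 0.25 (SE 0.13) did not pass (adjusted p 0.301). Without KO replicate 1, the highest library, it was 0.13. In WT+GFP it held 804, 731, 830.1 and 742 CPM and in KO+GFP 857, 888, 868 and 862 CPM, without overlap. The difference of 0.16 (SE 0.07) did not pass in limma (adjusted p 0.136) and passed in DESeq2 (adjusted p 0.0409). DESeq2 was the 1 of 8 other settings in which it passed, and it passed in 0 of 16 fits with a library left out. In KO+YAP it held 668, 698, 706 and 740.4 CPM, all below KO+GFP. The mean fell by 19.0%, a difference of -0.31 (SE 0.07, adjusted p 0.00761), and it passed without each of the 16 libraries in turn. WT+YAP held 777, 756, 706 and 717 CPM, which overlapped WT+GFP, and the interaction of -0.23 (SE 0.10) did not pass (adjusted p 0.156). The ratio of *Ldha* to *Ldhb* per kilobase stayed between 0.369 and 0.491 in uninjected and between 0.450 and 0.579 in injected hearts, with the genotypes overlapping in both tables.

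The changes of *Slc2a1*, *Aldoa*, *Ldhb* and *Hk2* in the KO groups went with the marker sums of other cells given above. From KO+GFP to KO+YAP the fibroblast sum went from 1169 to 1664 CPM to 2043 to 2624 CPM, the endothelial sum from 1175 to 1230 to 1371 to 1411 CPM, and the smooth muscle sum from 399 to 638 to 883 to 1335 CPM. The erythroid sum was 1213 to 3117 CPM in KO+GFP, 1866 to 2061 CPM in KO+YAP and 3392 to 8422 CPM in WT+GFP. The macrophage sum went from 26.7 to 72.8 to 84.0 to 106 CPM, and that of the 3 atrial markers listed was 214.1 to 426 CPM in KO+GFP against 35.2 to 172 CPM in KO+YAP, without overlap. The atrial sum overlapped between KO and WT uninjected hearts, whereas the 1 adipocyte marker listed was 37.8 to 67.7 CPM in KO and 29.2 to 34.7 CPM in WT. The cardiomyocyte sum overlapped between KO+GFP, at 58200 to 68759 CPM, and KO+YAP, at 56635 to 59183 CPM. The part of these markers in the results was not tested.

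In the 3 remaining pairs none of the 10 genes passed. KO+YAP against WT+GFP asked how close the treated KO hearts came to control hearts. Here 0 of 10 passed in limma and in the other tools and settings tried, 0 of 10 had an unadjusted p under 0.05, where 6.08% of all genes did, and 0.0206% of all genes were called. For none of the 10 did the groups lie apart, against 4.45% of all genes. The differences ran from -0.22 for *Aldoa* to 0.28 for *Hk1*, the 95% intervals lay between -0.49 and 0.65, and so changes of that size were not resolved with 4 hearts a group. In WT+YAP against WT+GFP, 0 of 10 passed in any of these fits and 0 of 10 had an unadjusted p under 0.05, where 0 of 14597 genes passed in limma and 1011 (6.93%) had an unadjusted p under 0.05. The differences ran from -0.21 to 0.10, with intervals between -0.46 and 0.44. In KO+YAP against WT+YAP, 0 of 10 passed in any of these fits, 0 of 10 had an unadjusted p under 0.05, where 11.1% of all genes did, and 0.0411% of all genes were called, with differences of -0.26 to 0.36 and intervals between -0.60 and 0.74. The groups did not lie apart for any of the 10 in these 2 pairs, against 4.32% and 9.23% of all genes. The median over the 10 was -0.11, -0.08 and -0.03 in these 3 pairs, beside 0.00, -0.01 and 0.00 over all genes.

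The wider pathway was read from 104 other genes in 9 lists, 8 of glucose handling and its regulators and 1 of 12 hypoxia-induced genes outside glycolysis, of which 98 were tested in uninjected and 99 in injected hearts. In KO against WT, 12 of the 98 rose and 1 fell, so 13.3% passed against 6.69% of all genes. In KO+GFP against WT+GFP, 15 of 99 rose and 1 fell, and in KO+YAP against KO+GFP 2 of 99 rose and 14 fell. These are 16.2% in each, near the 13.7% and 14.8% of all genes. Single lists are counted against the same shares over all genes, of which 3.23%, 6.43% and 7.85% were higher and 3.46%, 7.22% and 6.92% lower in the 3 comparisons. None passed in the 3 remaining pairs in limma. Their median difference was 0.09, 0.08 and -0.09 in the first 3 comparisons.

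Among the 19 glycolytic enzymes tested, the list members included, 2 rose and 1 fell in KO against WT. Beside *Hk2* these were *Gpi1*, the isomerase that follows hexokinase (0.35, adjusted p 0.0325), and *Eno2*, the neuronal enolase, at a mean of only 1.98 CPM in KO (0.66, adjusted p 0.0166). In KO+GFP against WT+GFP *Hk2* alone of the 19 passed. In KO+YAP against KO+GFP *Hk2* rose and *Aldoa* and *Ldhb* fell. Of 6 glucose transporters, *Slc2a1* was the 1 that passed in each of these 3 comparisons.

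Of the 6 genes tested that set fructose 2,6-bisphosphate or reverse the phosphofructokinase step, 2 rose in KO against WT, both in uninjected and in GFP hearts, and both fell with YAP. *Fbp2*, muscle fructose bisphosphatase, differed by 1.34 without injection, by 1.01 with GFP and by -0.71 between KO+YAP and KO+GFP, with adjusted p-values of 0.00616, 0.000721 and 0.00686. *Pfkfb1*, one of the enzymes that make and break fructose 2,6-bisphosphate, differed by 0.70, 0.92 and -0.93.

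Among glycogen genes, *Ppp1r3c*, the protein that targets phosphatase to glycogen and promotes its synthesis, had 81.3 to 140.3 CPM in WT and 26.1 to 47.7 CPM in KO uninjected hearts. The groups did not overlap, and the difference was -1.49 (adjusted p 0.00610). It was 28.5 to 45.9 CPM in KO+GFP, 61.6 to 83.7 CPM in WT+GFP and 73.7 to 102 CPM in KO+YAP, with differences of -0.98 between KO+GFP and WT+GFP and 1.22 between KO+YAP and KO+GFP. *Pygl*, a glycogen phosphorylase, differed by 0.69, 0.67 and -0.84 in the 3 comparisons and *Stbd1*, which anchors glycogen, by 0.95 in uninjected hearts. Of the 14 glycogen genes, 3 rose and 1 fell in KO against WT, 1 rose and 1 fell with GFP, and 1 rose and 1 fell from KO+GFP to KO+YAP.

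Among the regulators, *Hif3a*, a hypoxia-inducible factor subunit with inhibitory forms, stood at 1.38 to 3.16 CPM in WT and 17.1 to 55.7 CPM in KO uninjected hearts, a difference of 3.33 (adjusted p 0.00269). It was 5.91 to 72.2 CPM in KO+GFP, 0.781 to 2.45 CPM in WT+GFP and 1.09 to 1.69 CPM in KO+YAP. *Klf15*, a glucocorticoid-responsive factor that raises *Slc2a4* in muscle, differed by 1.87, 2.06 and -1.47 in the 3 comparisons, while *Slc2a4* itself did not pass in any. *Myc* differed by 1.23 and 1.20 in the KO comparisons, and *Txnip*, which restrains glucose uptake, by -0.76 from KO+GFP to KO+YAP. Of the 18 regulators, 3 rose in KO against WT, 5 rose with GFP and 4 fell from KO+GFP to KO+YAP, where 3.23%, 6.43% and 6.92% of all genes did so. Of the 12 genes of insulin signalling and transporter traffic, *Pik3r1*, the regulatory subunit of phosphoinositide 3-kinase, differed by 1.27, 1.16 and -1.11, and *Irs1* by 0.77 and -0.69 in the 2 injected comparisons.

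Of the hypoxia-induced genes outside glycolysis, *Bnip3*, a mitophagy receptor, differed by 1.04, 0.99 and -1.02, *Adm*, adrenomedullin, by 0.62 and -0.91 in the injected comparisons, and *Mxi1*, a MYC antagonist, by 0.58 and -0.69. This list counted 1 higher of 11 tested in KO against WT, 4 higher of 12 with GFP and 4 lower of 12 from KO+GFP to KO+YAP. In pyruvate and lactate handling 0 of 15 genes passed in uninjected hearts, *Pdk2*, a pyruvate dehydrogenase kinase, differed by 0.45 and -0.41 in the injected comparisons, and *Slc16a1*, the lactate carrier MCT1, was 0.42 higher in KO+YAP than in KO+GFP. None of 7 pentose phosphate genes passed in any comparison. For the interaction, 2 of the 99 genes passed higher and 8 lower, 10.1% against 7.56% of all genes, among them *Ppp1r3c* at 1.45, *Slc2a10* at 0.84, *Hif3a* at -3.31 and *Klf15* at -1.83. The marker sums of other cells given above moved with these groups too, and their part was not tested.

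**Figure D4:**
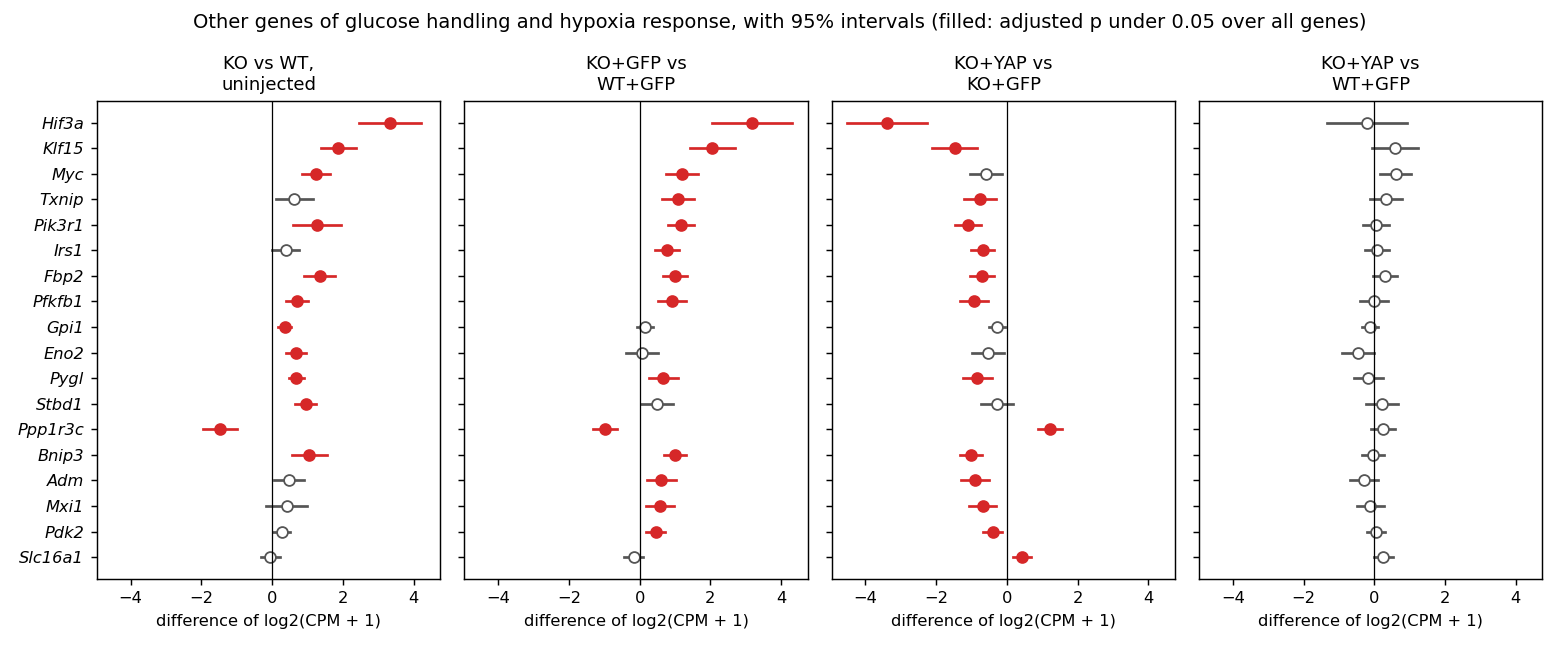
Difference of log2(CPM + 1) (horizontal axis, 95% interval) for named genes of glucose handling and of the hypoxia response outside the list of 10 in 4 comparisons; filled red points passed an adjusted p under 0.05 over all genes. *Ppp1r3c* lay opposite to *Hif3a*, *Klf15*, *Pik3r1* and *Bnip3* in the first 3 panels, of which the second and the one after it share the KO+GFP libraries, and no gene shown passed in the fourth.

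The genes most like each member over the 16 injected libraries were found by Pearson's r of log2(CPM + 1), as a description, since all pairs share the libraries and their depth. *Slc2a1* went with *Gm9821* (r 0.88), *Naca* (0.88) and *Ckm* (0.88), but over the 8 uninjected libraries the r was -0.09, 0.43 and 0.57. *Hk2* went with *Cdr2* (0.93), *Inka2* (0.92) and *Trim7* (0.92), and r was 0.54, 0.86 and 0.50 over the uninjected libraries. *Aldoa* and *Ldhb* were near neighbours of each other, with r 0.92 over injected and 0.81 over uninjected libraries. Both went with *Eci1*, an enzyme of fatty acid oxidation: for *Ldhb* r was 0.95 over injected and 0.97 over uninjected libraries, and for *Aldoa* 0.88 and 0.85. *Ckm*, muscle creatine kinase, was the third neighbour of *Aldoa* (0.88 and 0.80) and *Eif4ebp1* the third of *Ldhb* (0.91 and 0.83). Within the list *Slc2a1* and *Hk2* gave r of -0.40 over injected and -0.83 over uninjected libraries.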

How the data were processed

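The deposited tables gave 24 libraries in 2 normalised tables. Per the submitters' processing notes the reads were handled with Cutadapt 2.3, FastQC, HISAT2 2.1.0 and StringTie 1.3.4 on GRCm38, and edgeR 3.26.1. The deposited values are CPM, a signal that the authors scaled by an adjusted library size, since the column sums differ between libraries. The column sums also differed between groups, at 1026260 to 1084066 in KO and 942566 to 962145 in WT uninjected libraries. They were 1035614 to 1134439 in KO+GFP and 964738 to 990397 in KO+YAP. In WT+GFP they were 951561 to 1057076 and in WT+YAP 966521 to 985449. Levels and overlaps of groups were read on these scaled values only. Division by the value of 1 read gave whole reads within 0.1 read for 100.0% of the values of each library, from which depth was read and the count tests were run. The columns were CPM-like rather than CPM as first planned, which left the test unchanged. The study names Fisher's exact test. Here limma 3.58.1 (R 4.3.3) was fitted to log2(CPM + 1), with a mean-variance trend, 1 mean per group, each table apart, over genes above 1 CPM in 4 of 8 or 8 of 16 libraries (15598 and 14597 genes), two-sided. The alternatives were a pseudocount of 0.1, no filter, edgeR 4.0.16 or DESeq2 1.42.0 fitted to those reads, median-ratio scaling, only the groups compared, a replicate block, *Ddx3y* as a covariate and each library left out. P-values measure the spread between hearts labelled as separate samples. Exon lengths and overlaps came from GENCODE M21, and promoters from RefSeq. All 10 members were named in each main comparison, and of each pathway list at most the 3 called genes with the largest difference. The members and lists were chosen with earlier results of these data known. *Aldoa*, *Pgk1* and *Ldha* have near-identical processed copies in the genome, whose reads the counting could split. The scripts were tested on simulated data, with changes given to genes drawn from all those tested. For a log2 change of 0.5 limma called 1 of 66 genes in the uninjected and 3 of 66 in the GFP comparison. For a change of 1 it called 25 and 31 of 67, so a gene that did not pass can still have changed.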

Additional observations from a re-analysis of the deposited data

Results flagged for a closer look

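Some results met a preset rule for a closer look, which are given as values. *Pfkm* in uninjected KO replicate 4 was 695.4 CPM, while the other 3 KO libraries held 754 to 762 CPM, a gap that passed Dixon's test at the 95% level. It was 1 flag in 60 groups of 4 examined, where chance gives about 3. The change of *Slc2a1* with YAP differed between genotypes by -0.79 on the log2 scale (adjusted p 0.0451 in limma), with KO+YAP below KO+GFP in every library and WT+YAP inside the range of WT+GFP. This interaction missed the threshold with *Ddx3y* as a covariate (adjusted p 0.0620 in limma). It passed in 4 of 16 fits with a library left out.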

How the results depend on the processing

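Of the member counts, 4 of 10 called in KO+YAP against KO+GFP stayed at 3 to 4 under every setting and left-out library, while in the KO comparisons the *Hk2* calls and the *Slc2a1* call with GFP lay near the threshold. In KO against WT uninjected, 2 members passed, against 1 in edgeR, 0 with the replicate block and 1 with the *Ddx3y* covariate, and 1 to 2 with a library left out. As a percentage of the genes tested, 6.69% passed there, against 12.5% in DESeq2, 2.47% with the replicate block, 12.4% with the *Ddx3y* covariate and 2.43% to 13.5% with a library left out. In KO+GFP against WT+GFP, 2 members and 13.7% of the genes passed, against 0 and 6.37% with only the groups compared and 0 to 3 and 8.65% to 18.9% with a library left out. In KO+YAP against KO+GFP 14.8% of the genes passed, 8.28% with only the groups compared and 10.1% to 17.1% with a library left out. For the interaction 1 member and 7.56% of the genes passed, against 2 members in DESeq2, 0 members and 4.84% with the replicate block, 0 members with the *Ddx3y* covariate, and 0 to 1 members and 4.32% to 10.1% with a library left out. In KO+YAP against WT+GFP 0.0206% of the genes passed, 0.164% in DESeq2 and 0.00685% to 0.0274% with a library left out. In WT+YAP against WT+GFP 0 genes passed in limma, where 1011 had an unadjusted p under 0.05, 0.0754% in DESeq2 and 0% to 0.00685% with a library left out. In KO+YAP against WT+YAP 0.0411% passed, 0.486% in DESeq2, 0.103% with only the groups compared and 0.0137% to 0.103% with a library left out. In edgeR 6.13%, 13.0% and 14.4% of the genes passed in the first 3 comparisons. The sign turned for uncalled members with small differences: *Pgk1* in KO against WT was 0.04, -0.089 with the *Ddx3y* covariate and -0.041 to 0.13 with a library left out. With a library left out, *Pgk1*, *Hk1* and *Pfkm* in KO+YAP against KO+GFP ranged over -0.032 to 0.14, -0.11 to 0.084 and -0.021 to 0.14, and *Pfkm* and *Ldha* in KO+GFP against WT+GFP over -0.11 to 0.050 and -0.0056 to 0.12. With the replicate block the adjusted p of *Slc2a1* was 0.0604 in KO against WT and 0.0627 for the interaction, and that of *Hk2* in KO against WT was 0.122. The replicate numbers do not pair the libraries: same-numbered libraries had correlations of their deviations of -0.17 to 0.14 over 24 pairs in the injected and -0.19 to 0.10 over 4 pairs in the uninjected table. The cause of these shifts was not tested. The 10 genes held 158 reads or more in every library, while other genes named, such as *Hif3a* in WT hearts and *Eno2*, rested on far fewer reads and are less precise. *Pfkfb1* and *Slc2a10*, with group means of at most 4.73 and 4.61 CPM, were low too.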

Other observations

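The enzymes of the main path did not stand at like levels in the 2 tables, which were normalised apart and differ in injection, run and read length at once, so that these cannot be told apart. *Pgk1* had a mean of 281 CPM in WT uninjected and 547 CPM in WT+GFP hearts, 1.95 times as high, and 292 against 509 CPM in KO, 1.74 times as high. The other 9 genes of the list had ratios of 0.747 to 1.38 between the same WT groups and 0.704 to 1.22 between the KO groups. *Gapdh*, looked up after the *Pgk1* values were seen, had a mean of 116 CPM in WT uninjected and 630.2 CPM in WT+GFP hearts. The cause was not tested, and within each table the genotypes did not differ past the threshold for either gene.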
